A study of Mus musculus with 6 samples.

Results

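Intronic chromatin peaks that were called only where the transcription factor OTX2 was present are described here, 9251 of the 70494 peaks in the authors' deposited table. A peak was taken when it overlapped a peak of the DMSO list by at least 1 base, overlapped no peak of the dTAG13 list, and had a location in the table that begins with an intron. The members were thus selected on measured accessibility in the same comparison whose fold changes are given here, so their loss of signal is a description and carries no test. They were 50.2% of the 18418 intronic peaks and 32.8% of the 28237 peaks found in the DMSO list alone. Of the other intronic peaks, 6577 were in both lists and 2590 in the dTAG13 list alone.

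The study differentiated mouse epiblast stem cells (EpiSCs), pluripotent cells that resemble the epiblast before gastrulation, to definitive endoderm (DE), the germ layer of the gut and its organs. Both groups were of 1 line, 7H OTX2-dTAG-EGFP, on a BL6/129 hybrid background, in which OTX2 carries a degradation tag and EGFP. Culture began with 16 h in 3 uM CHIR plus Activin A at 40 ng/ml, and went on with 24 h in 100 nM LDN plus Activin A at 100 ng/ml. From the primitive streak stage one group of 3 libraries received dTAG13, a small molecule that marks the tagged protein for degradation, and the other 3 libraries received the solvent DMSO, in both cases for 24 h. ATAC-seq, which reads open chromatin by transposase insertion, was run on 50000 sorted live cells per library. By the series' design text the 3 libraries per group are technical replicates, and a single tagged line was used. The deposited standard errors (SE) may therefore leave out the spread between cultures.

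OTX2 is a bicoid-class homeodomain protein that binds DNA at the consensus GGATTA and acts in the anterior epiblast, the anterior endoderm and later the forebrain. Introns hold many enhancers, the distal elements at which such factors bind, and an intronic enhancer may act on its host gene or on a neighbour. GATA factors (motif AGATAA), SOX factors (motif ACAAAG and its variant form ACAATG) and FOXA factors (motif TGTTTAC) are endoderm regulators that bind the same kind of element.

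Peak sequences from the GRCm38.p6 assembly (RefSeq), the genome of build mm10 used by the authors, are shown first, because the results turn on short motifs in them. All are printed 5' to 3' on the plus strand. The first 3 are taken from the 6 members with the smallest deposited p among those that hold the OTX consensus and are at most 300 bases long, and the next is the called member with the smallest p among those with 3 copies. In all 4, capitals mark the OTX consensus GGATTA or its reverse complement TAATCC. The peak assigned to Ssbp3, a cofactor of LIM-domain transcription complexes, is chr4:106993947-106994141 in intron 4 of 8. That of Grid1, a glutamate receptor subunit, is chr14:34836000-34836285 in intron 2 of 15. That of Ovol2, a zinc finger factor of epithelial cells, is chr2:144308776-144309061 in intron 3 of 3. The peak assigned to the gene Gm12598, chr11:11256303-11256545 in intron 3 of 3 of Vwc2, holds 3 copies.
Ssbp3 peak: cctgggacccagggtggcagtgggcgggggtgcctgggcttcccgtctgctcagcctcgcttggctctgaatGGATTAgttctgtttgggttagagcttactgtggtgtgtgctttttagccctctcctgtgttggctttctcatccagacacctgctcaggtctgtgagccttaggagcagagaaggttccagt
Grid1 peak: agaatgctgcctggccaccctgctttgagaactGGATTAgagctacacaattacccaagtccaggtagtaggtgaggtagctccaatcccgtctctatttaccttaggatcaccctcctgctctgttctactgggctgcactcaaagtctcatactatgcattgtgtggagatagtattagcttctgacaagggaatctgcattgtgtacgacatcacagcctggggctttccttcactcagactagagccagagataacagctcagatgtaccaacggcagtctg
Ovol2 peak: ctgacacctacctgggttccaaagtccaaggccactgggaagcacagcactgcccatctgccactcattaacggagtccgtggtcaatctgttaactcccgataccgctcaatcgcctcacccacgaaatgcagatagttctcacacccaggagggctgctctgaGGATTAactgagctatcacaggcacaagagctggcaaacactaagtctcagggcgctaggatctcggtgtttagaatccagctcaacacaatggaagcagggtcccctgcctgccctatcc
Gm12598 peak: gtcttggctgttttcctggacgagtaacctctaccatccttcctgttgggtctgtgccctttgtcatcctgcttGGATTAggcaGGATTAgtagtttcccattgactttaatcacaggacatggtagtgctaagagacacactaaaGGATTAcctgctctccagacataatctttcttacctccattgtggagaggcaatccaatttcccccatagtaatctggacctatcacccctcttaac

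The next 3 are the members with the smallest deposited p among those without the OTX consensus inside the peak, at most 300 bases long. Capitals here mark the GATA motif AGATAA or its reverse complement TTATCT, of which each peak holds 1. The peak of Igsf21, an immunoglobulin superfamily gene, is chr4:140224093-140224360 in intron 1 of 9. The peak assigned to Gm15699 is chr1:104961739-104961993 in intron 7 of 11 of the cadherin gene Cdh20. The peak assigned to Gm26626 is chr16:92650265-92650542 in intron 5 of 7 of Runx1, a transcription factor gene best known from blood development.
Igsf21 peak: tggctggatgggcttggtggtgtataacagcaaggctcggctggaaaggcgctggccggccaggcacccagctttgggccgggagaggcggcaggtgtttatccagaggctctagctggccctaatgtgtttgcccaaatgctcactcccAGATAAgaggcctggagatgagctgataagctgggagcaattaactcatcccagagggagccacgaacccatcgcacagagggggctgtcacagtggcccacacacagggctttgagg
Gm15699 peak: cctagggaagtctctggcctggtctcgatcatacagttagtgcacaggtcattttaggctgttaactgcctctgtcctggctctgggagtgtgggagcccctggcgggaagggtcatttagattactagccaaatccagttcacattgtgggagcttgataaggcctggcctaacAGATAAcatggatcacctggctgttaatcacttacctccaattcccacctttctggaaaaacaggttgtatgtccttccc
Gm26626 peak: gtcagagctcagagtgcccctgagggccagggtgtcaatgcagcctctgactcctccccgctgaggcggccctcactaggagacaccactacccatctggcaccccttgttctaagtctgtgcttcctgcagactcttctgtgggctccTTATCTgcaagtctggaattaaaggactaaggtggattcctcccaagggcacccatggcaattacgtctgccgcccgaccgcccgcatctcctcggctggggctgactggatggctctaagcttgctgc

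The deposited table has 1 mean normalized count per peak over all 6 libraries, that is, read counts divided by size factors, and no value per library. Depth per library is therefore unknown. Means of each group were computed from that mean and the deposited log2 fold change of dTAG13 over DMSO, and are called implied means here. All 8 endoderm marker genes looked up (such as Sox17, Foxa2 and Gata6) had a promoter peak, with a median strongest mean of 38.1 normalized counts. So did 5 of 5 neural genes (median 18.3), 4 of 4 epiblast genes (14.7), 6 of 7 mesoderm genes (11.4) and 5 of 6 extraembryonic endoderm genes (9.84). Promoter peaks alone thus did not set these cell types apart.

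The members were weak and short peaks. Their mean normalized count in the authors' deposited table had a median of 4.03 (quartiles 2.85 and 5.85, range 1.24 to 40.4), and 6049 of them (65.4%) lay under 5. Intronic peaks of both lists had a median of 10.4, and those of the dTAG13 list alone 4.34. Median length was 95 bases for the members, 169 bases for peaks of both lists and 83 bases for peaks of the dTAG13 list alone. Every member was covered along its whole length by a DMSO peak.

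Signal was lower without OTX2 at nearly all members, as their selection implies. The median deposited log2 fold change was -1.44 (quartiles -2.52 and -0.73, range -6.98 to 2.99), with a median SE of 1.05, and 429 members (4.64%) had a value above 0. The median over all peaks of the table was -0.18. The medians of the implied means were 5.56 normalized counts in DMSO and 2.33 in dTAG13. The authors called 878 of the 8756 members with an adjusted p (10.03%) at an adjusted p under 0.05, all lower in dTAG13. Of all peaks tested, 3.79% were called lower, and since the rule used that contrast nothing is read from the difference. An unadjusted p under 0.05 was given for 2842 members.

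**Figure D1:**
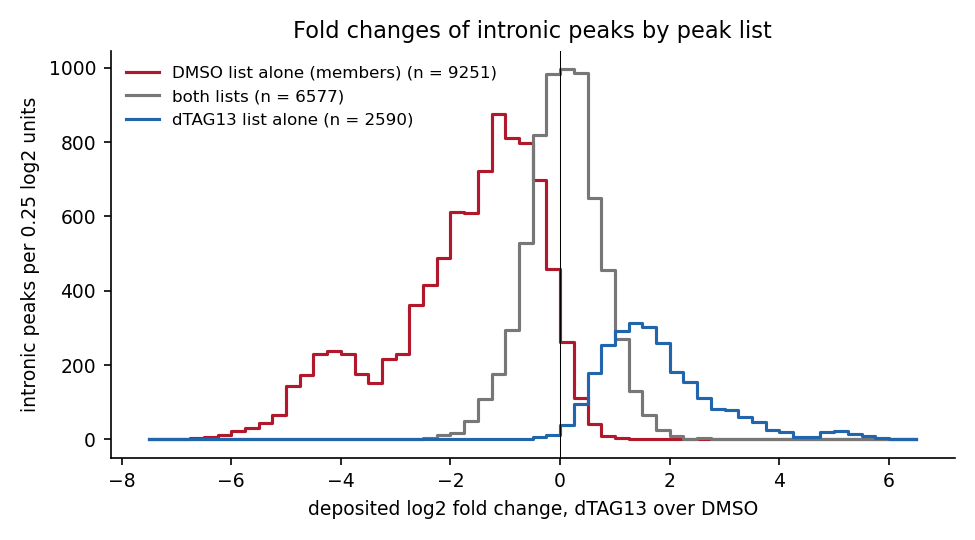
Number of intronic peaks per 0.25 log2 units of the deposited fold change (x axis, dTAG13 over DMSO), for peaks of the DMSO list alone (red), of both lists (grey) and of the dTAG13 list alone (blue). The members have a median of -1.44 and a separate mound near -4, and the peaks of both lists have a median of 0.07.

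The most negative values belonged to peaks with few or no reads in dTAG13. The implied dTAG13 means of the members fell into separate bands. With higher bands assumed to be set whole numbers of reads, 1 read in 1 of the 3 libraries was worth about 0.392 normalized counts. The floor and bounds below rest on that assumption. The band at 0.407 to 0.426, close to 1 read, held 188 members. The band at 0.713 to 0.847, assumed to be 2 reads in that step, held 1196. The lowest band, 0.197 to 0.215, held 1122 members (12.1%). It lies below the worth of 1 read and was therefore read as 0 reads in all 3 dTAG13 libraries, with a fitted mean above 0. Of the 878 called members, 359 (40.9%) were in the lowest band. Their fitted fold change depends on the model, so a bound was computed against a floor of 3 reads per library (3.53 normalized counts). With no read in dTAG13 the DMSO mean is 2 times the mean over all 6 libraries, and that value, slightly above the implied DMSO mean, was set over the floor. By that bound the 359 peaks were at least 1.94-fold lower at the median, and the Ssbp3 peak printed above, with the largest bound, was at least 7.79-fold lower. These floors cover counting error only.

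**Figure D2:**
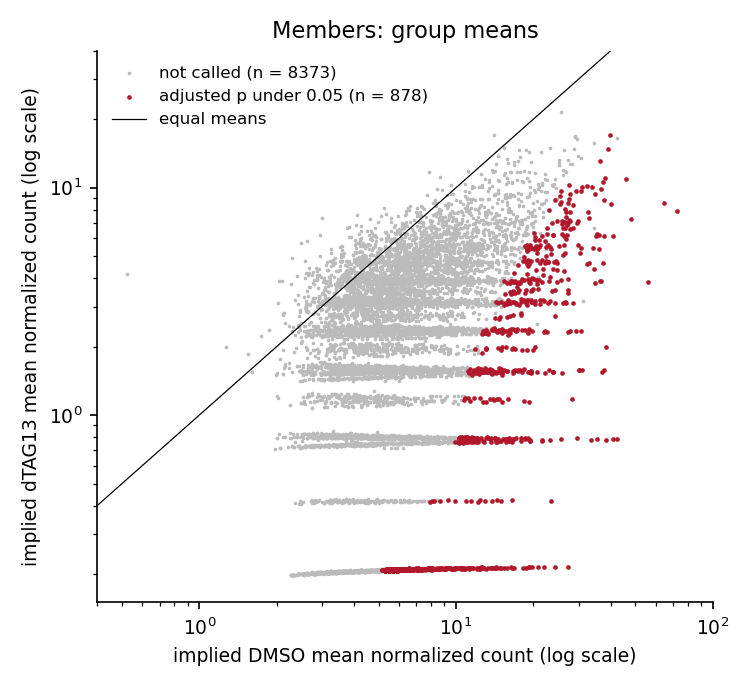
Implied mean normalized count in dTAG13 (y axis, log scale) against DMSO (x axis, log scale) for each of the 9251 members, with the 878 called members in red and the line of equal means. Rows of points at low dTAG13 values were read as whole numbers of reads, the lowest of them at 0.197 to 0.215.

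Called members differed from the others in strength. Their implied means had medians of 13.0 normalized counts in DMSO and 0.786 in dTAG13, their mean count a median of 7.12 against 3.91 for members not called, and their length a median of 194 against 92 bases. The share called rose with signal, from 3.93% of the members with a mean of at most 3 to 44.5% of those above 10. A weak member that was not called is therefore not shown to have kept its signal.

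The strongest members were not all the most depleted. The Gdpd5 peak (chr7:99424624-99425083, intron 4 of 17), at a gene of a glycerophosphodiester phosphodiesterase, had the highest mean and lies 741 bases from an annotated start site of the gene. Its implied means were 72.8 normalized counts in DMSO and 7.90 in dTAG13, and the authors' deposited table gives -3.20 as its log2 fold change (SE 0.40, adjusted p = 1.17e-11). The Asic2 peak (chr11:81926373-81926945, intron 1 of 9), in an acid-sensing ion channel gene, followed with 64.7 and 8.57 normalized counts (in the authors' deposited table log2 fold change -2.92, SE 0.39, adjusted p = 5.88e-10). A peak in intron 7 of 8 of Plekhm3 (chr1:64811633-64812120) had implied means of 55.8 and 3.86. The complexin gene Cplx4 had 48.2 and 7.31. The dTAG13 means were higher in others of the strongest 8: Efna5, which encodes the guidance ligand ephrin-A5, had 45.9 and 10.9, Morn1 had 39.6 and 17.0, and Tbc1d22a had 39.2 and 14.8. The strongest member without a call was in Arhgap23, a GTPase-activating protein gene, with implied means of 42.3 and 16.6, and by the authors' deposited table a log2 fold change of -1.35 (SE 0.76) and an adjusted p of 0.314. Its deposited SE was the largest among the 439 intronic peaks with a mean between 25 and 35, whose median SE was 0.34.

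The 8 called members with the most negative fold changes were all at 0 reads in dTAG13. They were assigned to Ssbp3, Gm15699 (in Cdh20), Grid1, Ephb2, Fam120a, D730045A05Rik (in Mapk4), Dab1 and Heg1, and their implied DMSO means ran from 27.2 (Ssbp3) to 18.7 (Heg1). Ephb2 is a receptor of ephrins, Dab1 an adaptor of reelin signalling and Heg1 a membrane receptor needed for heart and vessel formation. Their bounds ran from at least 7.79-fold lower (Ssbp3) to at least 5.38-fold lower (Heg1). A peak in intron 2 of 15 of Cdh1, the gene of E-cadherin, had an implied DMSO mean of 18.3 and a bound of at least 5.25-fold lower (adjusted p = 0.00020469 in the authors' deposited table).

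The OTX consensus was more frequent in the members than in other intronic peaks. Within 100 bases of the midpoint, on either strand, 1545 members held a copy (16.7%, Wilson 95% interval 16.0 to 17.5). The share was 8.13% (7.5 to 8.82) in intronic peaks of both lists, 3.13% in those of the dTAG13 list alone and 8.85% in all peaks. Intergenic peaks of the DMSO list alone had 16.4%, close to the members, so the share was not particular to introns. The reversed sequence ATTAGG, a control with the same base composition, was in 10.3% of the members, 7.66% of peaks of both lists and 5.37% of peaks of the dTAG13 list alone. The control is not independent of the consensus, since GGATTAGG holds both, as in the Gm12598 peak printed above. The intervals cover counting error over peaks only, and peaks are not replicates of a condition.

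The gap to the peaks of both lists was also seen among peaks of like signal. Among peaks with a mean of 5 to 7 normalized counts, 14.7% of the members and 5.47% of the intronic peaks of both lists held the consensus. From 7 to 10 the shares were 17.5% and 6.33%, and above 10 they were 25.2% and 10.3%. The peaks of the dTAG13 list alone, about as weak as the members (median 4.34 against 4.03), had the lowest share of all sets compared.

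Within the members, the consensus was more frequent the more negative the deposited fold change. Of the 187 members with a log2 fold change of -5 or below, 44.9% (37.96 to 52.1) held a copy. The share was 31.5% from -5 to -4, 27.6% from -4 to -3, 22.1% from -3 to -2, 15.5% from -2 to -1 and 7.70% from -1 to 0. Among the 429 members with values above 0 it was 4.66% (3.04 to 7.09), below the reversed control in the same peaks (6.53%). The control also rose over these bins, from 6.53% to 14.4%. The bins were not matched for signal. Their median mean was 4.66 normalized counts at -5 or below, 2.41 from -5 to -4, and between 3.43 and 4.50 in the others. Fold changes of peaks at 0 reads in dTAG13 depend on the model, so steps between the lowest bins are not measured losses alone.

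**Figure D3:**
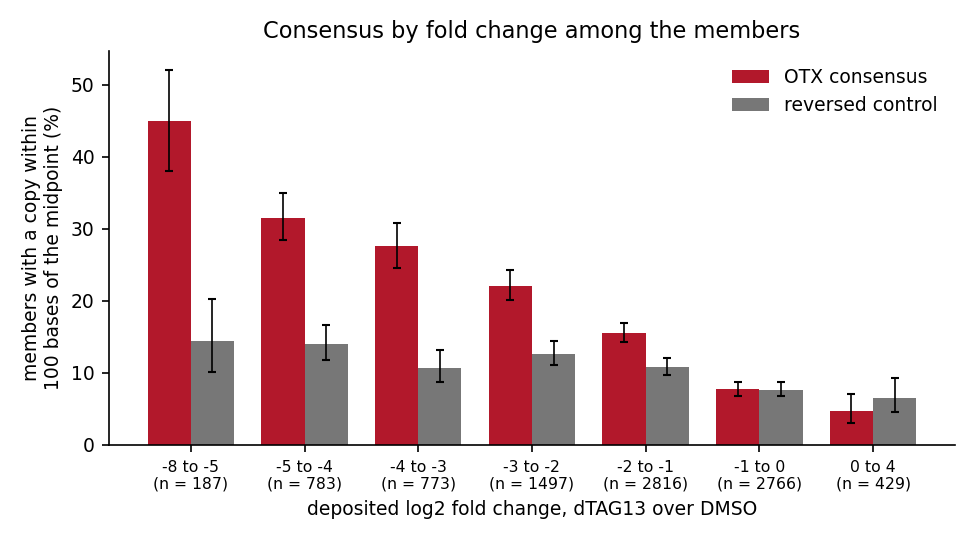
Share of members (y axis, percent) with the OTX consensus (red) or its reversed control (grey) within 100 bases of the midpoint, by bins of the deposited log2 fold change (x axis). Bars carry Wilson 95% intervals and the number of members stands under each bin, and the consensus falls from 44.9% to 4.66% while the control falls from 14.4% to 6.53%.

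Members with more copies were called more often. An adjusted p under 0.05 was found for 7.68% of the tested members without a copy, 20.2% of those with 1 copy, 38.1% of those with 2 copies and 5 of 11 (45.5%, 21.3 to 72.0) with 3 or more. Median log2 fold changes were -1.31, -2.22, -3.12 and -3.61 in that order. The median mean counts were 4.04, 3.93, 4.24 and 5.31 normalized counts, so the first 3 classes had about the same signal. Of the 5 called members with 3 or more copies inside the peak, those at Gm12598 (in Vwc2), Cacna1e, Gm10723 and Pde4b were at 0 reads in dTAG13. The fifth, in intron 6 of 18 of Auts2, had implied means of 9.86 and 0.762.

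The copies lay near the middle of the peaks. In called members there were 25.9 copies per 100 peaks within 50 bases of the midpoint and 3.87 per 100 in the flank 450 to 500 bases away, counting both sides. Members not called had 9.66 and 3.97, peaks of both lists 4.59 and 3.53, and peaks of the dTAG13 list alone 1.54 and 3.67. The flanks were thus alike in all 4 sets, and only in peaks of the dTAG13 list alone was the middle poorer in copies than the flank.

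**Figure D4:**
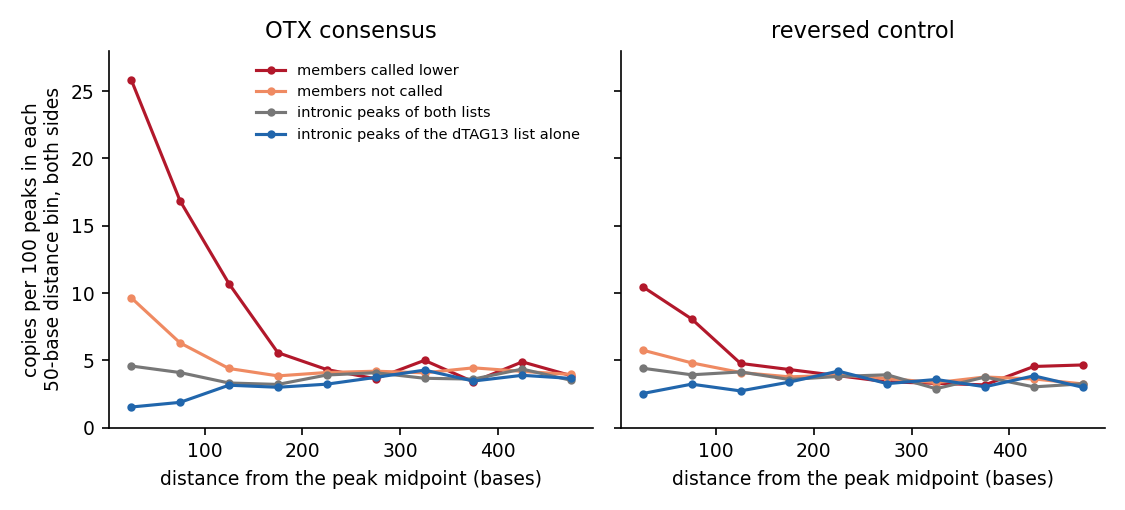
Copies per 100 peaks (y axis) of the OTX consensus (left) and its reversed control (right) in bins of 50 bases on both sides of the midpoint (x axis, distance in bases), for called members, members not called and the other intronic peaks. Called members start at 25.9 for the consensus, against 1.54 in peaks of the dTAG13 list alone, and all sets meet near 4 in the flank.

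Other motifs of endoderm factors also differed, by less. So did the reversed control ATTAGG, in 16.2% (13.9 to 18.8) of called members against 7.66% (7.04 to 8.33) of intronic peaks of both lists. A difference of this kind was thus not limited to motifs of factors. In called members the GATA motif was in 31.3% (28.3 to 34.5), against 20.7% (19.8 to 21.7) of intronic peaks of both lists, and the SOX motif ACAATG in 22.7% against 11.7%. The other SOX form, ACAAAG, was in 26.9% against 19.7%, and TAATTA, bound by LIM and other homeodomains, in 10.6% against 5.73%. The forkhead motif TGTTTAC was in 8.88% against 7.13%, with overlapping intervals. Some motifs were rarer in called members: the TEAD motif GGAATG was in 9.23% against 13.6%, the AP1 motif TGANTCA in 4.67% against 7.57%, and the KLF and SP motif GGGCGGG in 2.39% against 5.73%. Over all peaks of the table, the shares of TEAD, AP1 and KLF or SP were 11.6%, 6.07% and 15.9%.

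The authors' table marks peaks with classes C1 to C4, whose meaning the sources used here do not give. Every called member was in C1 (298 peaks) or C2 (580 peaks). The OTX consensus was in 39.3% (33.9 to 44.9) of the C1 members and 34.5% (30.7 to 38.4) of the C2 members, with overlapping intervals. The GATA motif separated them, at 17.8% (13.9 to 22.5) in C1 and 38.3% (34.4 to 42.3) in C2. C1 was thus near the 20.7% of peaks of both lists. The 2 classes differed in strength too, with median means of 9.66 and 5.98 normalized counts and median log2 fold changes of -3.07 and -4.68. Among members with a mean up to 7 the GATA shares were 16.3% in C1 and 33.6% in C2, and above 7 they were 18.4% and 45.1%. In all intergenic peaks of these classes, whichever list held them, the GATA shares were 23.0% and 32.9%.

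Whether GATA was more frequent beside an OTX copy varied by set. Over all members it was in 25.2% (23.1 to 27.5) of those with an OTX copy and 22.5% (21.5 to 23.4) of those without, and in intronic peaks of both lists in 24.1% and 20.4%. In C2 the GATA motif was in 31.5% (25.5 to 38.2) of the members with an OTX copy and 41.8% (37.0 to 46.9) of those without. In C1 it was in 20.5% (14.2 to 28.7) and 16.0% (11.4 to 22.1). The intervals overlapped in both classes, which hold called members only, so no direction is read from them. Either motif was present in 61.9% of C2 and 49.0% of C1 members, against 26.9% of intronic peaks of both lists. The Igsf21, Gm15699 and Gm26626 peaks printed above are called members with GATA and no OTX consensus inside. A match to these letters is not a bound site, and a peak without them is not shown to lack the factor.

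**Figure D5:**
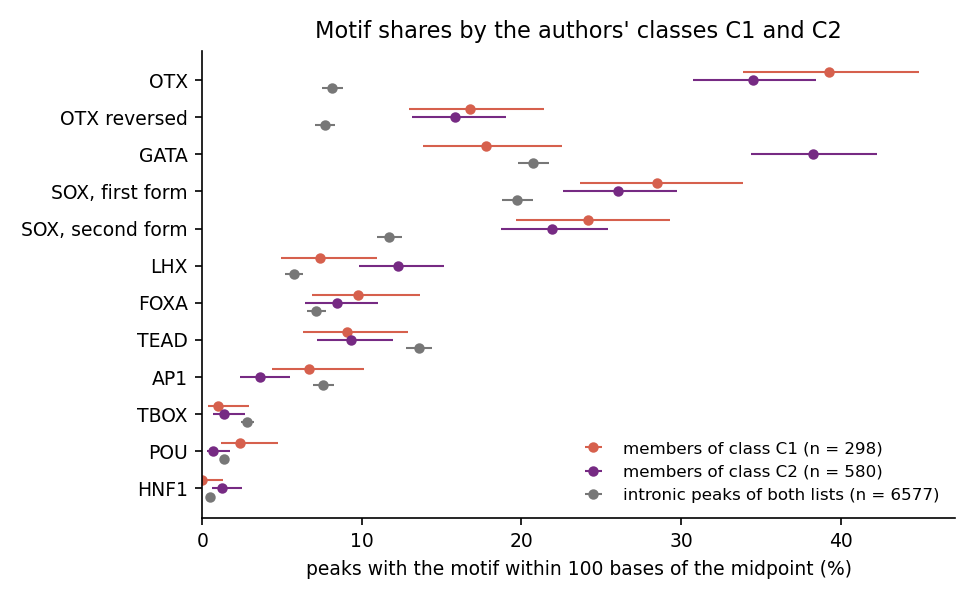
Share of peaks (x axis, percent) with each motif within 100 bases of the midpoint, for members of class C1, members of class C2 and intronic peaks of both lists. Points carry Wilson 95% intervals, the first and second SOX forms are ACAAAG and ACAATG, and GATA stands at 17.8% in C1 and 38.3% in C2.

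Members lay throughout introns. By the table's location text 2909 of them (31.4%) were in a first intron, against 29.9% of intronic peaks of both lists and 29.5% of those of the dTAG13 list alone, and among called members it was 34.5% (31.4 to 37.7). Their relative position within the intron had a median of 0.518 (quartiles 0.284 and 0.748) from its start in the direction of transcription. Median intron length was 32149 bases for all members, 40880 for called members and 28687 for peaks of both lists. The nearest annotated start site was a median 13442 bases away, and 38.8% had 1 within 10000 bases. The gene column of the deposited table named the host of the intron for 57.7% of the members, so gene names below need not be the host. Neighbouring members on a chromosome were a median 84184 bases apart, and 14.4% of neighbour pairs were within 10000 bases.

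The members were spread over 5693 genes by the gene column, of which 3817 had 1 member and 17 had 10 or more. The most were 15 at Kalrn, a guanine nucleotide exchange factor gene, then 13 each at Magi1, Nrxn3 and Spock1. Dab1, Efna5, Nckap5, Ntm and Pde4d had 12 each. Magi1 encodes a junction scaffold, Nrxn3 the synaptic adhesion protein neurexin-3, and Ntm an immunoglobulin superfamily adhesion protein. Called were 1 of 15 at Kalrn, 2 of 13 at Magi1 and at Nrxn3, 0 of 12 tested at Spock1, 3 of 11 at Dab1, 2 of 11 at Efna5, 0 of 8 at Nckap5 and 2 of 10 at Ntm. Pde4d, left out of the 8 genes of the naming rule by alphabetical order alone, had 1 of 11 called. Of the 786 genes with a called member, 10 had 3 or more.

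Members were 12 of the 86 peaks at 20 definitive endoderm factors (13.95%), beside 13.1% of all peaks of the table. Peaks of every location are counted in these shares. The other intronic peaks at these genes were 6 in both peak lists and 1 in the dTAG13 list alone. The members lay at 3 of the genes, and 3 of 12 were called, with a median log2 fold change of -3.23. The called include a pair assigned to Shisa2, an inhibitor of WNT and FGF signalling. Both Shisa2 peaks lie in introns of the neighbouring gene Atp8a2, and had implied DMSO means of 12.03 and 13.9 against 0.212 and 1.18. For all lists the share of called members is to be read beside 10.03% of all members, and the median beside -1.44.

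Signalling genes showed single called members. Of 44 WNT pathway genes, 15 had 34 members, and 4 of 32 tested were called (12.5%, median -1.63). They were assigned to the coreceptor Lrp5, the WNT5A receptor Ror2, the inhibitor Nkd1 and the ligand Wnt5a, the last within the neighbouring gene Erc2. The Lrp5 peak was at 0 reads in dTAG13 with an implied DMSO mean of 12.6, at least 3.63-fold lower, and the Ror2 peak had implied means of 23.4 and 5.10. Of 35 genes of the NODAL, activin, TGFb and BMP pathway, 12 had 21 members, and 3 of 20 tested were called (15%, median -1.25). They lay in Smad1, which transmits BMP signals (24.0 and 4.70), in Smad2, which transmits NODAL and activin signals (21.3 and 3.09), and in Ltbp1, which binds latent TGFb (16.2 and 0.768). In the FGF and ERK list, 1 of 11 was called (9.09%, median -1.93), in the receptor gene Fgfr2 (18.2 and 4.75). In the list of LIM cofactor and TLE corepressor genes, 2 of 12 were called (16.7%, median -1.53), both in intron 4 of Ssbp3, where the second had implied means of 27.4 and 3.95.

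Guidance and adhesion genes held the most called members of these lists, but they also held many members. Members were 22.3% of the peaks of the axon guidance list and 33.4% of those of the adhesion and matrix list. The share over all peaks of the table was 13.1%. Of 41 axon guidance genes, 22 had 63 members, and 11 of 62 tested were called (17.7%, median -1.51). Ephb2 had 3 of them, and the ephrin gene Efna5 had 2. The other called members were 1 each at the semaphorin genes Sema3a, Sema6a and Sema6d, at the netrin gene Ntn1, at the receptor gene Robo1 and at its ligand gene Slit1. The Sema6d peak was the strongest after that of Efna5, with implied means of 40.1 and 8.45 (in the authors' deposited table log2 fold change -2.25, SE 0.43, adjusted p = 0.00012633). Of 44 cell adhesion and matrix genes, 26 had 99 members, and 12 of 97 tested were called (12.4%, median -1.44). Cdh1 and the junction scaffold gene Magi1 had 2 each, and the cadherins Cdh2, Cdh4 and Cdh13, the protocadherin Pcdh19, the collagen gene Col4a2, the scaffold genes Magi2 and Pard3 and the membrane protein gene Flrt3 had 1 each. Both called Cdh1 peaks lie in intron 2, at 0 reads in dTAG13.

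Members were 5 of 64 peaks of the pluripotency and epiblast list (7.81%) and 4 of 65 of the mesoderm and primitive streak list (6.15%). They were 10 of 71 of the neural list (14.1%) and 8 of 55 of the extraembryonic endoderm list (14.5%). Peaks of every location are counted in these shares too. Other intronic peaks numbered 6 in both peak lists and 1 in the dTAG13 list alone for the pluripotency and epiblast list. In the same order they were 2 and 3, 11 and 3, and 2 and 2 for the others. The pluripotency and epiblast list had 5 members, of which 0 of 4 tested were called in the authors' deposited table, and the mesoderm and primitive streak list 4 members with 0 calls. The member with the smallest p in the pluripotency and epiblast list lay in Sall4, a zinc finger factor of pluripotent cells. It had implied means of 27.3 and 13.2 (adjusted p = 0.126 by the authors' deposited table). In the mesoderm list it was assigned to Foxc1 but lay in Gmds (adjusted p = 0.0539 by the authors' deposited table). Of the neural list 1 of 10 was called, in Pax7 (20.6 and 3.94), and of the extraembryonic endoderm list 1 of 8, assigned to Ttr but in an intron of Gm16090 (18.4 and 4.97).

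A column of the table outside the selection marks genes as down, and another as up, by criteria not stated in the sources used here. Of the members, 419 (4.53%, 4.12 to 4.97) were assigned to genes marked down and 375 (4.05%) to genes marked up. In intronic peaks of both lists the shares were 3.25% and 4.88%. Among called members, counted by peak, 8.31% (6.66 to 10.3) were at genes marked down and 2.73% (1.84 to 4.04) at genes marked up. Counted by gene, 55 of the 786 genes with a called member were marked down (7.00%, 5.42 to 8.998) and 20 up (2.54%). Of the 4907 genes with members of which none was called, 111 were marked down (2.26%) and 142 up (2.89%). Of the 3063 genes with an intronic peak but no member, 32 were marked down (1.04%) and 58 up (1.89%). Of all 26796 genes of the table, 1.38% were marked down and 1.60% up. These gene classes were not matched for their number of peaks.

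Among genes marked down, the called members with the smallest p were in Gdpd5, Plekhm3 (both named above), Epb41l1, Efna5, Kctd16, Casr and Slc9a3r1. Epb41l1, which encodes a membrane cytoskeleton protein, had implied means of 38.5 and 1.99 normalized counts (in the authors' deposited table log2 fold change -4.28, SE 0.73, adjusted p = 1.29e-05). Casr, the calcium-sensing receptor gene, had 29.2 and 2.34. Slc9a3r1, a scaffold gene of apical membranes, had 34.2 and 5.41. Kctd16, an auxiliary subunit gene of GABA-B receptors, had 30.1 and 1.57. Cdh1, Robo1, Ror2, Ltbp1, Sema6d, Shisa2 and Wnt5a were also marked down, while Ntn1, Sema3a, Slit1, Cdh2, Col4a2 and Flrt3 were marked up with a called member of lower signal.

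At the border of the selection, 5 peaks on each side were compared, and their fold changes overlapped. The members closest to a dTAG13 peak were 51 to 55 bases from it, and their log2 fold changes were -1.36 (Foxn3), -0.96 (Dock9), -0.89 (Nadk), -0.06 (Itga5) and -0.57 (5430434F05Rik, in Tet3). On the other side, 5 intronic peaks with the smallest overlap with a dTAG13 peak, 59 bases each, were taken. They had -0.74 (Egfros, in Egfr), -0.43 (Bzrap1), -0.17 (Gm11990), -0.88 (Wdr41) and -0.22 (Gm23496). The shortest intronic peak of the dTAG13 list alone also had 59 bases. These 5 may therefore hold a whole short dTAG13 peak and need not be marginal overlaps. The Itga5 member had implied means of 10.9 and 10.4, so a peak called in 1 list alone need not differ in signal. Only 165 members had a dTAG13 peak within 200 bases, and the median distance was 15866 bases.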

How the data were processed

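ATAC-seq was deposited for 3 DMSO and 3 dTAG13 libraries as a table of all peaks and a pooled peak list per group (65089 DMSO and 44391 dTAG13 peaks, called with MACS2 on mm10 per the file names). Per the submitters' processing notes fastp, Bowtie2, MACS2, featureCounts, HOMER 4.11 and ChIPseeker were used. Their settings, the handling of duplicates and any shift of read ends are not given in the sources used here. Per the file headers, the deposited signal of a peak averages read counts divided by size factors over the libraries. The deposited log2 fold changes and SE, the score (fold change over SE), the p-value and the adjusted p-value were used as the authors gave them, and 495 members had no adjusted p.

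No values per library were used here, so no test was run and calls are the authors' at an adjusted p under 0.05. Implied group means assume equal weight of both groups. Peaks were matched to the lists by at least 1 base, to GENCODE release M21 by the transcript in the location text (4504 of 4520 host genes found), and to GRCm38.p6, and 16 motifs were searched on both strands in 201 bases around the midpoint: those spelled in the text and FOXH1, T-box, CTCF, HNF1, POU and NR5A or ESRR by name. Shares carry Wilson intervals at 95%. Members, motifs and the 13 gene lists (361 gene entries) were chosen with earlier results of these data known, and some of their members and lists are not reported here. Named members are the 8 called with the most negative fold change, the 8 with the highest mean, the member with the smallest p per gene list, the 8 genes with the most members, up to 5 with 3 or more OTX copies, and the 8 with the smallest p at genes marked down. The called members at listed genes were named in addition after their values were seen. Python 3.11.15, numpy 2.4.6, pandas 2.3.3, scipy 1.17.1, statsmodels 0.14.6 and pysam 0.24.0 were used, and the functions were tested on simulated data. Alternatives covered the overlap, weak peaks, centring, motif window, transcript and gene assignment.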

Additional observations from a re-analysis of the deposited data

How the results depend on the processing

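Of 18 alternative values, 10 were counted as close to those reported and 8 as moved. Among the close values, the count of 9251 members at an overlap of at least 50% could not move. Every member was wholly covered by a DMSO peak. The values counted as close include numbers of calls from 727 to 1030 against 878. Members with a mean of at least 5 numbered 3202 in place of 9251. The OTX share of 16.7% was 12.2% inside the peak, 10.1% within 50 bases of the midpoint and 17.5% at a mean of at least 5. The first-intron share of 31.4% was 30.2% by the main transcript and 34.6% at a mean of at least 5. The share at genes marked down, 4.53%, was 6.95% by the host gene and 2.92% with 1 member per gene, where intronic peaks of both lists had 5.52% and 2.77%. The 878 calls were 727 with fold changes centred on the median of all peaks (-0.18) and 1030 centred on all peaks of both lists (0.09). An alternative added after seeing the data, introns of the longest transcript of protein-coding hosts, left 8025 members, 756 calls and an OTX share of 16.9%. No paired analysis was possible because the table holds no values per library, and leaving out a replicate was not run for the same reason. With a median of 4.03 normalized counts per member, the low read number limits which losses could be called, and depth per library is unknown.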

Other observations

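By the gene column, the gene with the most called members was Plekhm3, chosen after its values were seen. Its 8 members had log2 fold changes from -5.22 to 0.19 in the authors' deposited table, and 6 were called. These 6 lay in introns 6 and 7 of 8, between chr1:64797634 and chr1:64827710, and 2 of them held the OTX consensus. Their implied means were 32.3 and 4.64, 36.9 and 1.54, 7.87 and 0.211, 55.8 and 3.86, 23.1 and 3.17, and 5.19 and 0.208 normalized counts in DMSO and dTAG13. At the 2 other intronic peaks of the gene, 1 in both lists and 1 found with dTAG13 alone, the values were -0.51 and 0.71. Auts2 came next, with 5 of 7 members called, and then Dapk2 with 4 of 5 and Gm23393 with 4 of 7. By the host of the intron, Gm20388 had 16 called members and Auts2 had 6.

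The member with the most OTX copies inside the peak, also chosen after its value was seen, was in intron 1 of 8 of Rbm20, a splicing factor gene of heart muscle. It held 8 copies on 1 strand in a tandem repeat with copies 36 or 44 bases apart. Its log2 fold change was -1.55 in the authors' deposited table (SE 0.65, adjusted p = 0.137), with implied means of 13.8 and 4.71. The stretch from the first to the last copy, chr19:53806797-53807094 of mm10 on the plus strand, is printed with TAATCC in capitals.
Rbm20 repeat: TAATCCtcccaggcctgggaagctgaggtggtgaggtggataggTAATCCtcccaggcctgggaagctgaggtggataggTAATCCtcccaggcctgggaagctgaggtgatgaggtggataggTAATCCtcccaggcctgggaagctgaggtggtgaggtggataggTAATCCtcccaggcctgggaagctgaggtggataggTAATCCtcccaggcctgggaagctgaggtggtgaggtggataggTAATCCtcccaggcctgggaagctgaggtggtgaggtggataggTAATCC

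Pairs of homeodomain core motifs were counted after the data were seen. TAAT followed by ATTA at a spacing of 3 bases was in 12 of 878 called members (1.37%, Wilson 0.784 to 2.37), 46 of 8373 members not called (0.549%) and 13 of 6577 intronic peaks of both lists (0.198%). This spacing is given because it was the most frequent in called members. Other spacings from 0 to 7 bases gave at most 7 called members each. At 5 bases the shares were 0.797% (0.387 to 1.64) of called members and 0.198% of peaks of both lists. They were 0.683% and 0.182% at 4 bases, 0.683% and 0.137% at 7 bases, and 0.114% and 0.198% at 1 base. The intervals of called members at 3 and 5 bases overlapped, so the excess was not shown to be particular to 3 bases.

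Some hosts by the location text were readthrough transcripts. The intron of Gm20388 spans 4384418 bases and held 87 members, which the gene column assigned to 37 other gene names, and 38 members had Fgfr2 as host by a transcript with an intron of up to 2908817 bases.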
